A study of Mus musculus with 2 samples.

Results

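The potassium channel genes of the mouse are described here by their open chromatin in the embryonic hindbrain. Members were all protein-coding genes whose symbol begins with Kcn followed by a letter, 94 of 21707 protein-coding genes on chromosomes 1 to 19, X and Y. Chromatin was mapped by DNase-seq, in which the enzyme DNase I cuts accessible DNA and the cut sites are sequenced. Hindbrain tissue came from healthy B6NCrl embryos of both sexes, pooled, at 11.5 days of age, and formed 1 group of 2 libraries labelled as biological replicates of the same donor entry. The title of the series says that the record has been superseded. A gene was called open when a peak of each library overlapped in a site within 1 kb of one of its transcription starts. Distal sites lay more than 1 kb and up to 100 kb from the nearest start of any protein-coding gene and were assigned to that gene.

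Potassium channels are membrane pores that let potassium leave or enter the cell and so set the resting potential and end the action potential. Each pore is built from alpha subunits around a selectivity filter, and the subunits fall into voltage-gated, inwardly rectifying, leak (two-pore) and ion-activated families, joined by silent modifier subunits and by auxiliary proteins. In the developing nervous system they are known both from dividing progenitors and from maturing neurons, and many channel genes carry RE1, the DNA element bound by the repressor REST, which is known to hold neuronal genes silent in other cells.

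The libraries differed in extent. Replicate 1 held 150176 analysed peaks in 44.7 Mb of hotspots and replicate 2 held 194873 peaks in 73.7 Mb, with median peak heights of 36 and 50. The height has no stated scale and was not comparable between the libraries, so ranks are given as the percentage of the same library's peaks that were lower. Marker genes of neural progenitors (4 of 4) and of neurons (4 of 4) were open in both libraries, as were 4 of 4 pericyte and endothelial markers and 3 of 4 epithelial ones. Among 4 markers of hindbrain position, Egr2 was open in both libraries, whereas Hoxa2, Hoxb2 and Hoxb1 had promoter peaks in replicate 2 (heights 116, 102 and 90) and none in replicate 1. Erythroid and muscle lists had 1 of 4 open genes each and the myeloid list 0 of 4. What these differences contribute to the values below was not tested, so results are given for each library. In a tissue, an opening in few cells and a weak opening in many cells cannot be told apart.

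The promoter peaks that stood highest among the members are shown first, because they carry the strongest signal and differ in base composition. Capitals mark the SP/KLF box (GGGCGG) and the CCAAT box (written CCAAT) on either strand. Each run is 150 bases around the centre of the site, read 5′ to 3′ on the strand of the gene (RefSeq genome GRCm38.p6, same build as mm10).
Kcnab2 promoter, chr4:152477546-152477695, minus strand: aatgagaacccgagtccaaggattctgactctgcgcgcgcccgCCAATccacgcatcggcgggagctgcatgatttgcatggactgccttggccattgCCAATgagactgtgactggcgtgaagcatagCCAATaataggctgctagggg
Kcnj2 promoter, chr11:111066036-111066185, plus strand: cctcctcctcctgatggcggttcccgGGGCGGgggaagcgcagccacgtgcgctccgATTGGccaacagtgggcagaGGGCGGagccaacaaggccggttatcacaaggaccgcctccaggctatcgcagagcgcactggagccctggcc
Kcnn3 promoter, chr3:89519996-89520145, plus strand: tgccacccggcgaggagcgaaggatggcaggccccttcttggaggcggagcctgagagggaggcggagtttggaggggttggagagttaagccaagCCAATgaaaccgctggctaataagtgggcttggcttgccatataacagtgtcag
Kcnk5 promoter, chr14:20181756-20181905, minus strand: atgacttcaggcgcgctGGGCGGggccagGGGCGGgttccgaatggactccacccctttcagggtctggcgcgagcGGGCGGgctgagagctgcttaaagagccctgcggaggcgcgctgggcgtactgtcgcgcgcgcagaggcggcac

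The window of Kcnab2 held 3 CCAAT boxes and no SP/KLF box, that of Kcnk5 held 3 SP/KLF boxes and no CCAAT box, and that of Kcnj2 held 2 SP/KLF boxes and 1 CCAAT box. Over all shared promoter sites, the SP/KLF box was in 67 of 180 sites of members (37.2%), against 43.2% of 26105 sites of other genes. The CCAAT box was in 30 of 180 (16.7%), against 21.3%. Both boxes were thus found at a somewhat lower share of member sites. The shares are over sites, of which open members held more per gene (mean 2.43, against 1.98), and no interval was taken.

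The second set of sequences shows the RE1-like matches, because their share is where the distal sites of members stood farthest from those of other genes among the motifs read. The pattern searched was CAGCACC, then 2 bases of any kind, then GGACAGC, with at most 2 mismatches over the 14 fixed bases, on both strands. Capitals mark the matched stretch, and each run is read on the strand of the match. These sites were chosen after their values were seen.
Kcnh4 promoter site, chr11:100758936-100759085, minus strand: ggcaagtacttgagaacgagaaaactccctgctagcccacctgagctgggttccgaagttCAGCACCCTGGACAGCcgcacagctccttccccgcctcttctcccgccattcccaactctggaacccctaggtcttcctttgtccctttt
Kcnab2 distal site, chr4:152424466-152424615, minus strand: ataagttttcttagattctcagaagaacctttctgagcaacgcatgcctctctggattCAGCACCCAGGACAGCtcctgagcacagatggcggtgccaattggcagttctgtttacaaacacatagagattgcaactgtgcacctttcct
Kcnh2 distal site, chr5:24357576-24357725, minus strand: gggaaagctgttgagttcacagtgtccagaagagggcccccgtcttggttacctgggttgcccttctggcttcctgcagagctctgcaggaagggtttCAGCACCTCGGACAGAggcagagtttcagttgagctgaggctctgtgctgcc

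Most potassium channel genes had an open promoter. A promoter site shared by both libraries was found at 74 of 94 members (78.7%; exact 95% binomial interval 69.1% to 86.5%), against 66.0% of all protein-coding genes. Replicate 1 had a promoter peak at 76 members (67.2% of all genes did) and replicate 2 at 83 members (69.5% of all genes). No member had a peak in replicate 1 only, against 0.682% of all genes. The higher share of members did not hold under every setting: with only peaks in hotspots of the highest deposited value 58.5% of members were open, against 59.1% of other genes, and with peaks in hotspots wider than 2 kb set aside it was 46.8%, against 47.4%. Intervals here cover counting error only.

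The open promoters of members were lower than those of other open genes, though most peaks of each library were lower still. Their median ranks were 77.3% in replicate 1 and 87.7% in replicate 2, against 94.6% and 95.8% at other open genes. The highest promoter peak of the 74 open members had a median height of 62 in replicate 1 (quartiles 49.2 and 80.0) and 101.5 in replicate 2 (89.0 and 119.8). The 14246 other open genes had medians of 101 (76.0 and 114) and 127 (111 and 135). In replicate 1, 7 of 74 members (9.46%) passed the median of other open genes, and in replicate 2, 9 of 74 (12.2%). The plot of height distributions shows the same order from 10% of the genes upwards in both libraries. The lowest values cannot be compared, since the 0 among other genes stands for no peak of that library within 1 kb.

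**Figure D1:**
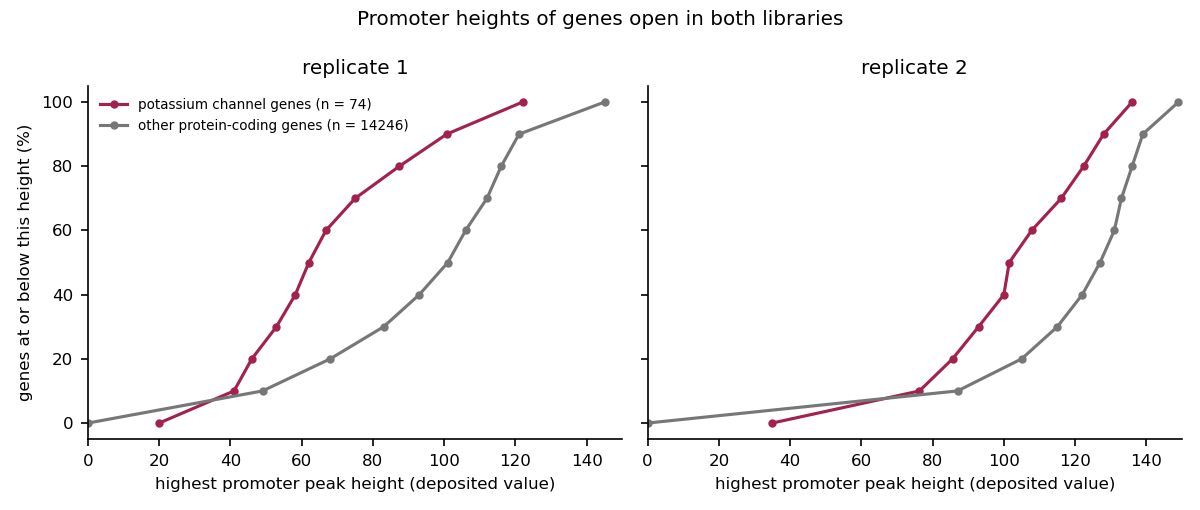
Share of genes (%, vertical axis) at or below a given promoter peak height (deposited value, horizontal axis) in each library, drawn at deciles, for 74 open potassium channel genes and 14246 other open genes. The curves of the potassium channel genes reach 50% at 62 and 101.5, and those of the other genes at 101 and 127.

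The promoter peaks of members were lower than those of other open genes but often several to a promoter. Open members held a mean of 2.43 shared promoter sites, against 1.98 at other open genes, and 35 of 74 (47.3%) held 3 or more, against 24.8%. Among genes with a single annotated start the means were 2.13 and 1.78. The most separate shared promoter sites were 6, at Kcnc2 and at Kcnn2, in each case counted over 2 groups of starts far apart. Starts of members also lay in wide hotspots of over 2 kb in replicate 2, at 38 of 94 members (40.4%), against 21.2% of all genes. Replicate 1 had such a hotspot at 1 member, Kcnn1, and at 3.95% of other genes, so the wide hotspots rest on replicate 2.

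**Figure D2:**
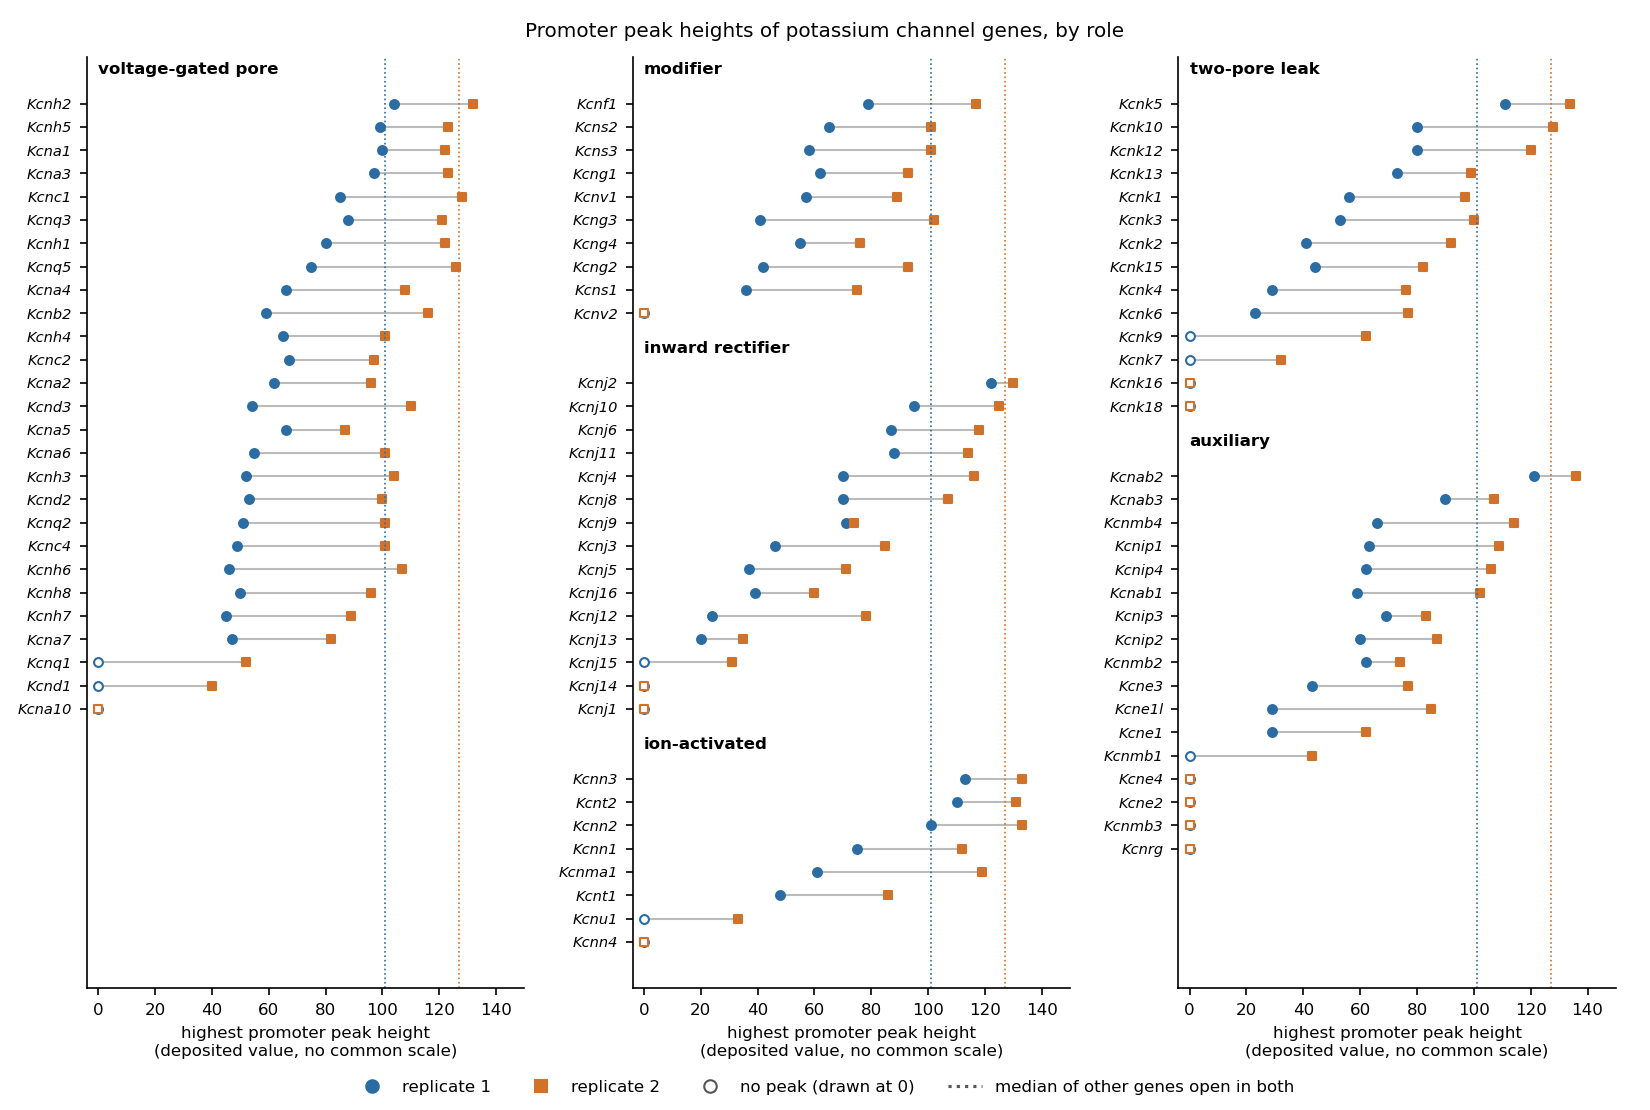
Highest promoter peak height (deposited value, horizontal axis) of each of 91 potassium channel genes, grouped by role and ordered by mean rank, with circles for replicate 1, squares for replicate 2 and open symbols at 0 for no peak. Dotted lines mark the medians of other open genes, 101 in replicate 1 and 127 in replicate 2, and most members lie left of both.

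Voltage-gated pore genes encode channels that respond to depolarisation, and 27 of 30 of these genes had an open promoter, with median heights of 65 in replicate 1 and 107 in replicate 2. Heights of a gene are its highest promoter peak in each library over all its starts, so a pair can join values of different sites, as at Kcnn1 and Kcng1. Within subfamilies, the highest and lowest members are named here by the mean of their ranks in both libraries, and the order can differ within a library. In the Kcna (Shaker) subfamily 7 of 8 were open. Kcna1, which encodes an axonal channel that limits repetitive firing, had the highest promoter by mean rank, with heights of 100 and 122 in replicates 1 and 2, though Kcna3 (97 and 123) was higher in replicate 2. Kcna7 was the lowest open one, at 47 and 82. Kcna10 had no promoter peak in either library.

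Both Kcnb genes, which encode delayed rectifiers, were open. All 4 Kcnc genes, known for channels that let neurons fire fast, were open. Kcnc4 was the lowest of them by mean rank at 49 and 101, and Kcnc2 (67 and 97) was lower in replicate 2. Of the Kcnd genes, which encode A-type channels, Kcnd3 (54 and 110) and Kcnd2 (53 and 100) were open. Kcnd1 had a peak of height 40 in replicate 2 only.

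All 8 genes of the Kcnh (ether-a-go-go) subfamily were open, between Kcnh2 at 104 and 132 and Kcnh7 at 45 and 89. Kcnh2 is known for the repolarising current of heart muscle. Of the Kcnq genes, which encode the M-current channels of neurons and a cardiac and epithelial channel, 4 of 5 were open, and Kcnq3 stood highest by mean rank at 88 and 121, below Kcnq5 (75 and 126) in replicate 2. Kcnq1, the cardiac and epithelial member, had a peak of height 52 in replicate 2 only.

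The modifier subunits (Kcnf, Kcng, Kcns and Kcnv) do not form channels alone but join Kcnb subunits. Of these, 9 of 10 were open, with medians of 57 and 93. Kcnf1 stood highest at 79 and 117. Kcng1 (62 and 93) was the highest and Kcng2 (42 and 93) the lowest Kcng gene by mean rank. In replicate 2 they had equal heights and lay between Kcng3 (41 and 102) and Kcng4 (55 and 76). Kcns2 (65 and 101) was the highest and Kcns1 (36 and 75) the lowest Kcns gene, and Kcnv1 had 57 and 89. Kcnv2, known from photoreceptors, had no promoter peak.

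Inward rectifiers hold the resting potential, and 11 of 15 were open, with medians of 70 and 107. Kcnj2, which encodes a strong rectifier, had the highest promoter of the role at 122 and 130, ranks of 99.2% and 96.7%. Kcnj10, which encodes the main rectifier of mature glia, followed at 95 and 125. Kcnj13, known from epithelia such as choroid plexus, was the lowest open member of all at 20 and 35. Kcnj12 had peaks in both libraries (24 and 78) that did not overlap, Kcnj15 had a peak of 31 in replicate 2 only, and Kcnj1, the kidney channel, and Kcnj14 had none. The pore genes of ATP-sensitive channels, Kcnj11 (88 and 114) and Kcnj8 (70 and 107), were both open. Of the sulfonylurea receptors that complete those channels, Abcc9 was open at 41 and 85, and Abcc8 had a peak of 75 in replicate 2 only.

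In the ion-activated role, made up of calcium- and sodium-activated channel genes and Kcnu1, 6 of 8 were open. Their medians of 88 and 125 were the highest of any role. Kcnn3, which encodes a small-conductance calcium-activated channel, had 113 and 133, ranks of 97.4% and 97.5%. Kcnn2 had 101 and 133. Kcnn1, the lowest open Kcnn gene, had 75 and 112, which joins separate starts, with 63 and 112 at the first and 75 and 105 at the next. Kcnt2, a sodium-activated channel gene, had 110 and 131. Kcnma1, the gene of the large-conductance BK channel, had 61 and 119. Kcnu1, the sperm channel gene, had a peak of 33 in replicate 2 only, and Kcnn4, known from blood cells and epithelia, had none.

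Two-pore genes encode leak channels, and 9 of 14 were open, with medians of 56 and 99. Kcnk5 stood highest at 111 and 134, ranks of 96.9% and 97.8%, and Kcnk6 lowest at 23 and 77. Kcnk4 had peaks of 29 and 76 that did not overlap. Kcnk9 (62) and Kcnk7 (32) had a peak in replicate 2 only. Kcnk16, known from pancreas, and Kcnk18, known from sensory neurons, had none.

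Auxiliary subunits change the gating or transport of the pores, and 12 of 17 were open, with medians of 62 and 94.5. Kcnab2, which encodes a cytosolic beta subunit of the Kcna channels, had the highest promoter of all members by mean rank, at 121 and 136 (ranks of 99.0% and 98.4%). Its site also lay at a start of Nphp4, so it cannot be assigned to either gene alone. Kcnab1 was the lowest Kcnab gene at 59 and 102. The 4 Kcnip genes, whose products bind Kcnd channels, were all open. By mean rank Kcnip1 (63 and 109) was the highest and Kcnip2 (60 and 87) the lowest, while Kcnip3 (69 and 83) was the highest in replicate 1 and the lowest in replicate 2.

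Among the other auxiliary genes, 5 of 10 were open. Kcnmb4, the beta subunit gene of neuronal BK channels, had 66 and 114 and Kcnmb2 had 62 and 74, while Kcnmb1, known from smooth muscle, had a peak of 43 in replicate 2 only and Kcnmb3 none. Of the Kcne genes, which encode small single-pass subunits, Kcne3 (43 and 77) was the highest and Kcne1 (29 and 62) the lowest open one by mean rank. Kcne1l (29 and 85) was above Kcne3 in replicate 2 and level with Kcne1 in replicate 1, and Kcne2 and Kcne4 had no promoter peak. Kcnrg, whose product is known to hinder assembly of voltage-gated channels, had none either.

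In all, 11 members (11.7%) had no promoter peak in either library, against 29.8% of all genes. A peak in replicate 2 only was found at 7 members (7.45%), against 3.06% of all genes, and peaks of both libraries that did not overlap at 2 members (2.13%), against 0.534%. The 11 without a peak were Kcna10, Kcne2, Kcne4, Kcnj1, Kcnj14, Kcnk16, Kcnk18, Kcnmb3, Kcnn4, Kcnrg and Kcnv2. All 11 had a CpG ratio under 0.6 at every start, as had 6317 of the 6448 other genes with no promoter peak. The ratio is the number of CpG dinucleotides over that expected from base composition, and high values mark CpG islands.

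**Figure D3:**
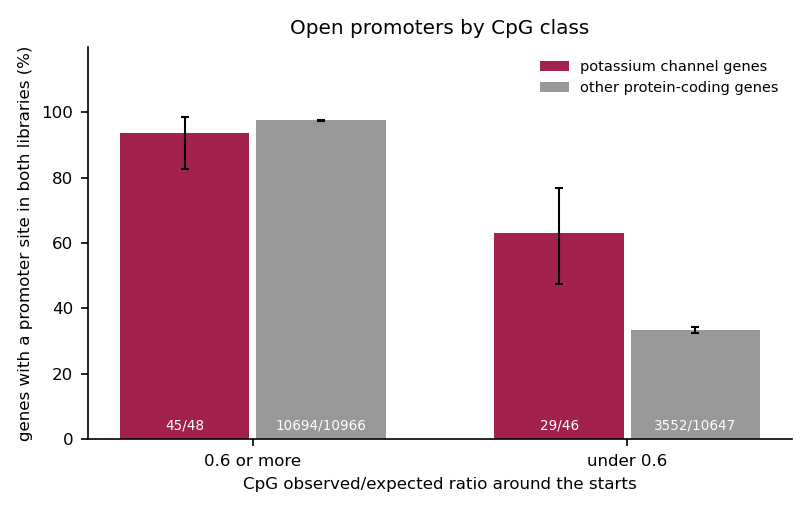
Share of genes with a promoter site in both libraries (%, vertical axis) by CpG ratio class, for potassium channel genes and other protein-coding genes. Bars start at 0, lines are exact 95% binomial intervals and numbers inside are open genes over genes. In the lower class 63.0% of potassium channel genes were open, against 33.4% of other genes, with median ratios of 0.36 and 0.25.

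Split by that ratio, the members differed from other genes in the lower class. With a ratio of 0.6 or more, 45 of 48 members were open (93.8%), against 97.5% of other genes. With a ratio under 0.6, 29 of 46 members were open (63.0%; interval 47.5% to 76.8%), against 33.4% of 10647 other genes. Within this class the median ratio was 0.36 in members and 0.25 in other genes, so the comparison is not at equal ratio. The heights of open members were lower than those of other open genes in both classes, at 65 and 107 against 106 and 131 in the higher class, and at 60 and 89 against 70 and 103 in the lower one. Kcnj2 (ratio 0.426), Kcnn3 (0.403) and Kcnt2 (0.454) were the highest promoters of the lower class, so some of the highest member promoters had a low ratio, while others such as Kcnab2 (0.768) and Kcnk5 (0.66) did not. Over the 74 open members, the ratio and the mean rank had a Spearman correlation of 0.28, given as a description.

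Several members have starts far enough apart to be judged one by one. Of 29 members with more than 1 group of starts, 13 had peaks of both libraries at every group, 12 at some and 4 at none. Overlap of the peaks was not required for these groups, and the same split was not taken over all genes. Kcnip4, the longest member at 1135 kb, had 4 groups of starts, all with peaks of both libraries. Their heights were 61 and 106, 42 and 42, 62 and 88, and 40 and 68 in replicates 1 and 2 from the first group to the last along the gene. Kcnma1 had peaks at 1 of 3 groups, and Kcnn1 at 2 of 3. Kcnj6 and Kcnd3 had peaks at the first of 2 groups and none at the second. Kcnh2 had peaks of both libraries at both groups, at 104 and 132 and at 57 and 106. These genes with several starts were chosen after their values were seen.

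Distal sites were common near members. In all, 406 shared distal sites had a member as nearest gene, a mean of 4.32 per member, against 2.53 per other gene, and 86 of 94 members had at least 1 (91.5%), against 64.0% of all genes. The 8 members without one were Kcna4, Kcnh4, Kcnj3, Kcnj4, Kcnj14, Kcnk4, Kcnq5 and Kcnt2. Members also had more room: the median stretch within the distal limit that lay nearest to a member was 102 kb, against 45.3 kb for other genes. Per length the densities were close, 3.55 shared sites per 100 kb for members and 3.66 for other genes, so the larger number per member goes with the larger stretch.

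**Figure D4:**
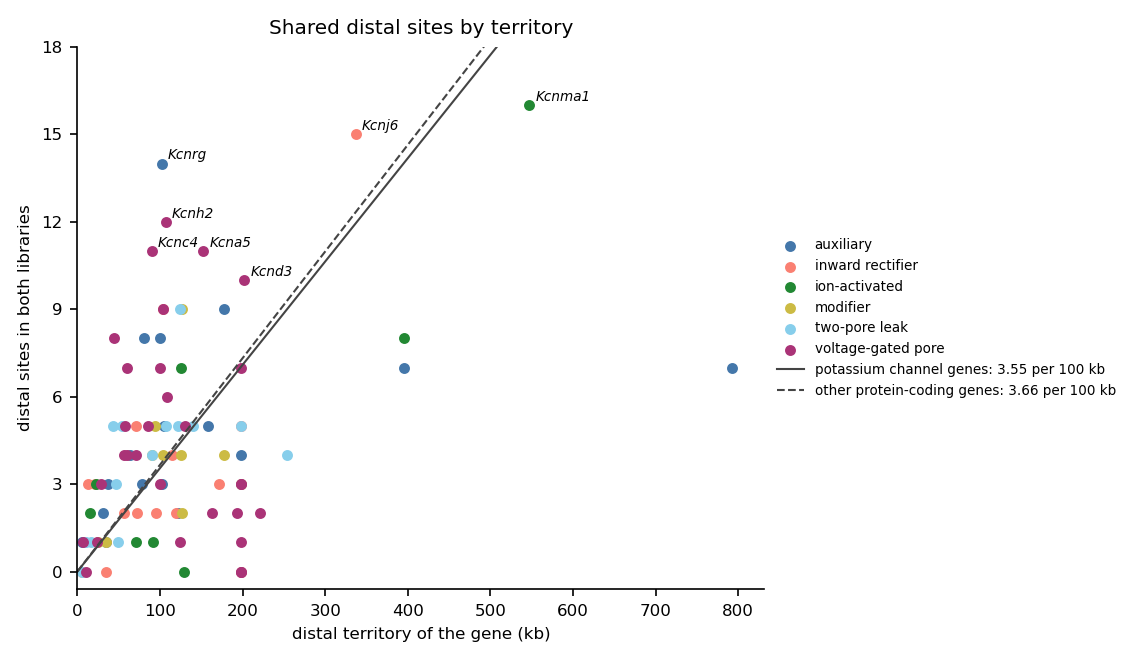
Shared distal sites (count, vertical axis) of each potassium channel gene against the length of the stretch assigned to it (kb, horizontal axis), coloured by role; points can overlap. The solid line marks 3.55 sites per 100 kb, over all potassium channel genes, and the dashed line 3.66, over other genes; Kcnrg, Kcnh2 and Kcnc4 lie far above both.

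The members differed in that density by the state of their promoter. The 11 members with no promoter peak held 58 shared distal sites, or 7.18 per 100 kb, against 1.97 at 6448 other genes with no promoter peak. Without Kcnrg the value was 6.23. The 74 open members held 3.21 per 100 kb, against 4.23 at other open genes. Pooled over genes, the order of the 2 states was thus turned round among members, where those without a promoter peak had the denser distal sites. It did not hold for each gene. Kcnj14 (0.0), Kcnmb3 (2.86) and Kcne2 (2.94 per 100 kb) lay below the value of the open members, and the rest of the 11 above it. A site assigned to the nearest gene need not act on it, which was not tested.

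The 12 members with the most shared distal sites held 134 of the 406 (33.0%). Kcnma1 had 16, of which 11 lay inside the gene, over a stretch of 547 kb (2.92 per 100 kb). Kcnj6, which encodes a G-protein-gated rectifier, had 15, also with 11 inside the gene (4.45 per 100 kb). Both genes had long stretches, at densities near that of all members. A long stretch did not always hold many sites, as at Kcnip4 with 7 over 792 kb.

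Kcnrg had 14 sites between 40.1 and 81.9 kb from its start, and 8 of these lay within 1 kb of a start of the noncoding gene Dleu2, and cannot be told apart from promoters of that gene. Kcnh2 had 12 sites (11.2 per 100 kb) and Kcnc4 had 11 (12.2 per 100 kb). Kcna5, a delayed rectifier gene, had 11 and Kcnd3 had 10. Kcne4, Kcng1, Kcnj1, Kcnk10 and Kcnq1 had 9 each. All 9 sites of Kcnq1 lay inside that gene, whose own promoter had a peak in replicate 2 only, and the 9 sites of Kcnj1 all lay outside it.

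Shared distal sites of members had median heights of 41 in replicate 1 and 66 in replicate 2, against 43 and 67 over all shared distal sites. In contrast to the promoters, they were thus about as high as elsewhere. Of the 406 sites, 172 (42.4%) lay inside the member, 187 (46.1%) in an intron of some gene, 196 (48.3%) between genes and 23 (5.67%) in an exon. These shares were not taken over all distal sites, so they do not set members apart. Distances had a median of 26.1 kb, against 19.5 kb over all.

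The highest distal site by mean rank lay 2.40 kb upstream of the nearest start of Kcnn1, with heights of 126 and 140 in replicates 1 and 2. A site 41.3 kb downstream of Kcnrg, at a start of Dleu2, had 111 and 136. In an intron of Kcnj10, 8.75 kb downstream of its start, a site had 112 and 127.

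Kcnn2 had a high site close upstream of a start (98 and 132), and a further site near Kcnrg at Dleu2 had 100 and 128. Intronic sites of Kcnq1 (98 and 126) and Kcnq3 (105 and 118) lay 46.4 and 47.1 kb downstream of the start. A site 1.40 kb upstream of Kcnh8 had 101 and 117. These high sites thus lay both close upstream of starts and deep inside or beyond the genes.
The Kcnn1 and Kcnj10 sites are printed as examples of high distal sites. They lay over 1 kb from the protein-coding starts used here and from starts of the main classes of long noncoding RNA. Other noncoding starts were not checked. Capitals mark the SOX-type box ACAATG on either strand, of which the Kcnn1 window had none.
Kcnn1 distal site, chr8:70865666-70865815, minus strand: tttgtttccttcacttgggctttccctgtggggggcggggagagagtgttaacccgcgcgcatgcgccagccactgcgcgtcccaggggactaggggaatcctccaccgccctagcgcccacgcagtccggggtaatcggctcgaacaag
Kcnj10 distal site, chr1:172349966-172350115, plus strand: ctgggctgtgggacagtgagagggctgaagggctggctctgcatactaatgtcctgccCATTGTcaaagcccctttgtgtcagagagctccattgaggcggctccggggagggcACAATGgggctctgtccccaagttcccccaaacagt

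RE1-like matches were in 19 of 406 shared distal sites of members (4.68%), against 613 of 54684 sites of other genes (1.12%). With at most 1 mismatch the counts were 9 (2.22%), against 334 (0.611%), and with none 2 (0.493%), against 109 (0.199%). The share was higher for members at each limit, but the last rests on 2 sites. Calcium channel genes had matches at 9 of 165 sites (5.45%) and sodium channel genes at 2 of 56 (3.57%), so the share was not higher in potassium channel genes than in calcium channel genes. The median GC content of the distal windows was 52.3% in members and 52.0% in other genes.

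**Figure D5:**
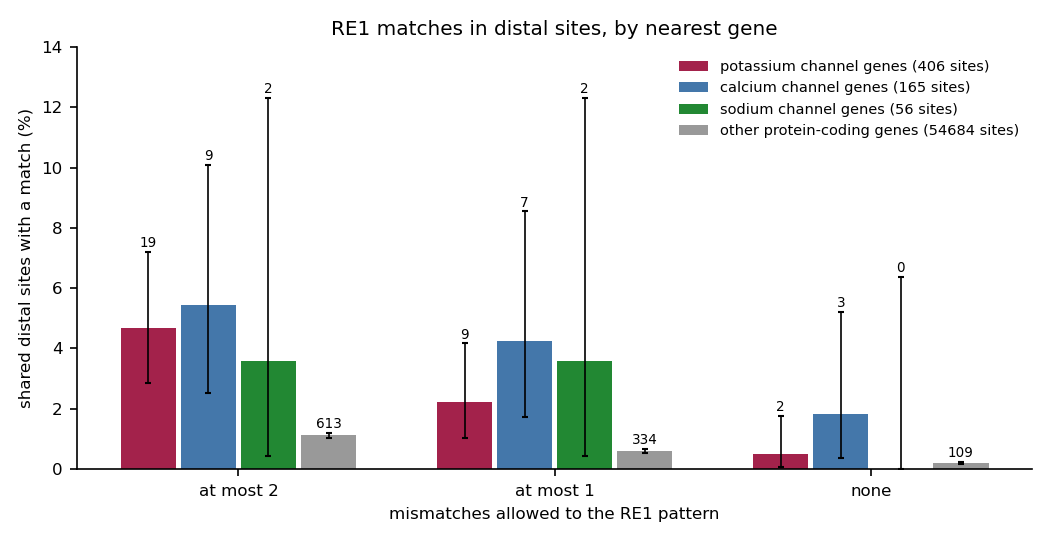
Share of shared distal sites with an RE1-like match (%, vertical axis) by the number of mismatches allowed, for sites whose nearest gene is a potassium, calcium or sodium channel gene or any gene that is no potassium channel gene. Bars start at 0, lines are exact 95% binomial intervals over sites and numbers are sites with a match; at most 2 mismatches gave 4.68% for potassium channel genes and 1.12% for other genes. The intervals treat sites as independent, though some matched Kcnk9 sites had nearly the same bases.

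The 19 sites belonged to 14 members, with 3 each at Kcnj6 and Kcnk9 and 2 at Kcnip1. The Kcnk9 sites 91.3 and 92.8 kb from its start had nearly the same bases around the match, so they may not be separate cases. Both are among the 9 sites with at most 1 mismatch. The printed Kcnab2 site, 24.2 kb from the nearest Kcnab2 start, matched in full and had heights of 41 in replicate 1 and 61 in replicate 2. A site 22.3 kb from Kcnk9 also matched in full, with 60 and 77. The printed Kcnh2 site (96 and 108, 5.97 kb from a start) had 1 mismatch.

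The matched sites were otherwise ordinary in height, with medians of 35 and 63, against 41 and 66 at member sites without a match. In promoter sites the match was rare, at 3 of 180 member sites (1.67%), against 0.919% of other sites. That of Kcnh4 (62 and 101) matched in full, and that of Kcng1 (57 and 93) had 2 mismatches. A match says only that these letters are present, and REST binding was not measured.

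The other motifs read differed less. In distal sites the E-box CAGCTG was in 17.2% of member sites, against 15.5% of others. The SOX-type box ACAATG was in 8.62%, against 8.95%. The TALE box TGACAG was in 14.8%, against 12.8%, and the TATA-type box TATAAA was in 2.71%, against 4.14%.

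Members that neighbour each other on a chromosome did not always share their promoter state. Kcna1 (100 and 122), Kcna5 (66 and 87) and Kcna6 (55 and 101) lie together on chromosome 6 and were all open. In the cluster on chromosome 3, Kcna3 (97 and 123) and Kcna2 (62 and 96) were open and Kcna10 was not. Kcnj9 (71 and 74) and Kcnj10 (95 and 125), 11.9 kb apart on chromosome 1, were both open.

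In other pairs 1 gene was open and its neighbour was not. Kcnj5 (37 and 71) was open and Kcnj1 was not, 28.1 kb apart on chromosome 9. Kcnk5 was open and Kcnk16 was not, 79.6 kb apart on chromosome 14. Kcne1 was open at low height and Kcne2 was not, 47.9 kb apart on chromosome 16.

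Other genes of membrane excitability gave a frame for these values. In the partner list of auxiliary subunits, HCN channels, chloride cotransporters and sodium pumps, 20 of 23 were open, with medians of 79.5 in replicate 1 and 121 in replicate 2. Sodium channel genes were open at 8 of 14 (57.1%, medians 63.5 and 102.5) and calcium channel genes at 22 of 26 (84.6%, medians 75 and 116). The share over all protein-coding genes was 66.0%. Medians of all 3 lists were below those of other open genes, as were those of the potassium channel genes (62 and 101.5). The sodium pump gene Atp1b3 (117 and 140) was among the partners above them.

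The libraries ranked the members alike. Across the 74 open members, heights in replicate 1 and 2 had a Spearman correlation of 0.82, and across the 406 distal sites 0.76. These are descriptions over genes and sites of the same libraries, which also share base composition, and genes are not independent replicates.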

How the data were processed

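DNase-seq was done on embryonic mouse hindbrain in 2 libraries, biological replicates 1 and 2 of 1 group. Each library came with a list of peaks and a list of hotspots aligned to mm10, per the labels. The deposited peaks are 150 bp wide and carry a height, a signal value of unstated scaling between 1 and 149. The deposited hotspots carry a −log10 of a false discovery rate from the authors. The sources used here name no aligner, no caller and no number of reads, so depth was unknown and no interval on a height can be had.

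Of 150613 peaks in replicate 1 and 195264 in replicate 2, 150176 and 194873 were used, those on autosomes and sex chromosomes with repeated entries dropped. Overlapping peaks of both libraries, by 1 bp or more, were joined into sites. A site was shared if it held a peak of each library. Starts were those of protein-coding transcripts in GENCODE M21 (basic set), 41264 starts of 21707 genes. Promoter sites lay within 1 kb of a start by their nearest edge, and distal sites lay beyond that, up to 100 kb from the nearest start. CpG ratios were taken over 1001 bp around each start, and motifs were read in the central 150 bp of sites from the GRCm38.p6 genome, which is the same build. Assignment was tested on simulated peaks. Python 3.11.15, pandas 2.3.3, numpy 2.4.6, scipy 1.17.1, pysam 0.24.0 and matplotlib 3.10.9 were used.

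The members, the role and partner lists and the naming rule were chosen with earlier results of these data known. By that rule the text names the highest and, in subfamilies of 3 or more, the lowest open member, every member not open in both libraries, the 12 members with most shared distal sites and the 10 highest shared distal sites, of which a few genes and sites are not reported here. Genes named outside the rule were chosen after their values were seen. With 1 group of 2 libraries no test between conditions was possible, and no p-value is given. Alternatives changed the promoter window, the overlap, the distal limit, the peak filters and the annotation, or left out a library.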

Additional observations from a re-analysis of the deposited data

How the results depend on the processing

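The count of open potassium channel genes stayed between 55 and 83 in 9 of 10 settings, against 74 in the main analysis; it was 44 without peaks inside hotspots of over 2 kb. Leaving out a library gave 83 (replicate 2 alone) and 76 (replicate 1 alone). The number of members with a shared distal site lay between 68 and 93 in 11 settings, from 86; with 1 library it was 89 or 93. The number of shared distal sites, 406, was 207 with peaks above the median height of their library and 179 with only peaks in the strongest hotspots, and 593 or 831 with 1 library; other settings gave 301 to 449. The share of open members above the median height of other open genes was 9.46% in replicate 1, from 6.82% to 14.7% across settings, and 12.2% in replicate 2; it was 4.55% there without the wide hotspots. The share of distal sites with an RE1 match, 4.68%, was 2.22% with at most 1 mismatch and 0.493% with none, limits chosen after seeing the data. The cause of these shifts was not tested beyond the fewer peaks that the filters leave. No paired analysis was possible because the result comes from no test: there is only 1 group. Depth limits are unknown, since the files give no read counts, and no result passes from these 2 libraries to other samples.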
